A study of Drosophila melanogaster with 6 samples.

Results

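The transcripts of the glycolytic enzymes were examined in S2R+ cells depleted of Hakai, an E3 ubiquitin ligase that belongs to the complex placing m6A on mRNA. The 10 genes *Hex-A*, *Pfk*, *Ald1*, *Tpi*, *Gapdh1*, *Gapdh2*, *Pgk*, *Eno*, *Pyk* and *Ldh* were taken by their FlyBase symbols, and each matched 1 gene of the 17559 in the count files. S2R+ is a Drosophila cell line of embryonic origin, and the series holds poly(A) RNA-seq libraries of 3 Hakai KD and 3 control KD replicates. The dsRNA of the control KD targeted lacZ, a gene of bacteria, and that of the Hakai KD targeted *Hakai*. In both cases the labels give 10 μg in 3 treatments over 6 days. The methods of the study give the amount per number of cells, so that it cannot be set against that of the labels. All libraries come from the same unmodified cell line, so that both groups share its genotype, and a KD leaves part of the targeted transcript in the cells. The question addressed by the comparison is which transcripts depend on Hakai.

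Glycolysis splits glucose into pyruvate in the cytosol. Hexokinase, phosphofructokinase, aldolase and triose phosphate isomerase spend ATP to make triose phosphates, and glyceraldehyde 3-phosphate dehydrogenase, phosphoglycerate kinase, enolase and pyruvate kinase recover ATP and NADH from them. Lactate dehydrogenase turns pyruvate into lactate and returns NAD+. In flies these genes are raised together in growing larval tissue under the nuclear receptor ERR, and *Ldh* is a known target of the hypoxia factor encoded by *sima*.

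The libraries held between 16041353 and 17288912 counts, and a glycolytic gene had between 833 and 11082 counts in a library, which gives a relative counting error between 0.95% and 3.46%. The targeted transcript *Hakai* (FBgn0032812; 2L, 19580612 to 19582474, minus strand) had 68.1 to 77.8 normalized counts in the Hakai KD libraries and 296 to 329 in those of control KD, a log2 fold change of -2.08. For these values each count was scaled to a common library size with TMM factors, which make libraries comparable when a few genes take unequal shares of the reads.

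None of the 10 glycolytic transcripts passed the threshold upon Hakai KD. In bulk RNA, fewer cells of a kind and less RNA per cell cannot be told apart. Here and below, p-values come from the quasi-likelihood test of edgeR with Benjamini-Hochberg adjustment over the 7811 genes that passed a filter on low counts, all 10 among them, and SE is the standard error of a log2 fold change. By this test, 0 of the 10 had an adjusted p under 0.05, beside 15.3% of all genes tested. The share was 21.5% among the 3407 genes with a mean normalized count at least that of the lowest of the 10. At an unadjusted p under 0.05 the count was 2, *Pfk* and *Pgk*, where 29.8% of all genes passed. DESeq2 and limma-voom also called 0 of the 10 after adjustment and 2 before it, and the likelihood ratio test of edgeR called 0 and 1. Before adjustment, 20.6% of all genes tested passed with DESeq2, 29.8% with limma-voom and 27.7% with the likelihood ratio test. After adjustment, these tools called 810, 1203 and 1260 of all genes. DESeq2 was fitted to all genes with counts and applied its own filter, so that its set of genes need not be the same. The approximate 95% interval of the log2 fold change lay within ± 0.3, a fold of 1.23, in 9 of the 10 genes. The exception was *Ldh*, whose interval was wider.

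The levels of the 10 transcripts were compared first, as RPKM (counts per kb of exon, scaled to the library size), since only per-length values can be compared between genes. Exon length was taken over all annotated transcripts of a gene, which lowers the value of genes with long alternative exons. *Gapdh1* was the highest, with 299, 314 and 310.0 in the control KD libraries (replicates 1 to 3) and 276, 312 and 308 in those of Hakai KD. *Pyk* followed, with 281, 285 and 286 in control KD and 251, 275 and 279 in Hakai KD. These levels ranked 203 and 222 among those genes tested whose exon length was annotated. *Gapdh1* stood above *Pyk* in all 6 libraries, although the ranges of both genes overlapped across the Hakai KD libraries.

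The middle of the order was held by *Pgk* with a control KD mean of 136 ± 0.67 (SD, n = 3), *Eno* with 98.9 ± 2.76 (SD, n = 3), *Hex-A* with 83.9 ± 4.35 (SD, n = 3) and *Ald1* with 70.1 ± 6.22 (SD, n = 3). Each of them stood above the next in all 6 libraries, and their ranges were separate within both groups. *Ldh*, *Gapdh2* and *Tpi* could not be ordered, with control KD means of 43.3 ± 7.36, 40.7 ± 1.97 and 38.7 ± 1.81 (SD, n = 3 each) and overlapping ranges. *Pfk*, which encodes the enzyme of the committed step, was the lowest at 17.1 ± 1.37 (SD, n = 3) and ranked 4365. The order of the mean levels thus spanned 18.7-fold from *Gapdh1* to *Pfk*.

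**Figure D1:**
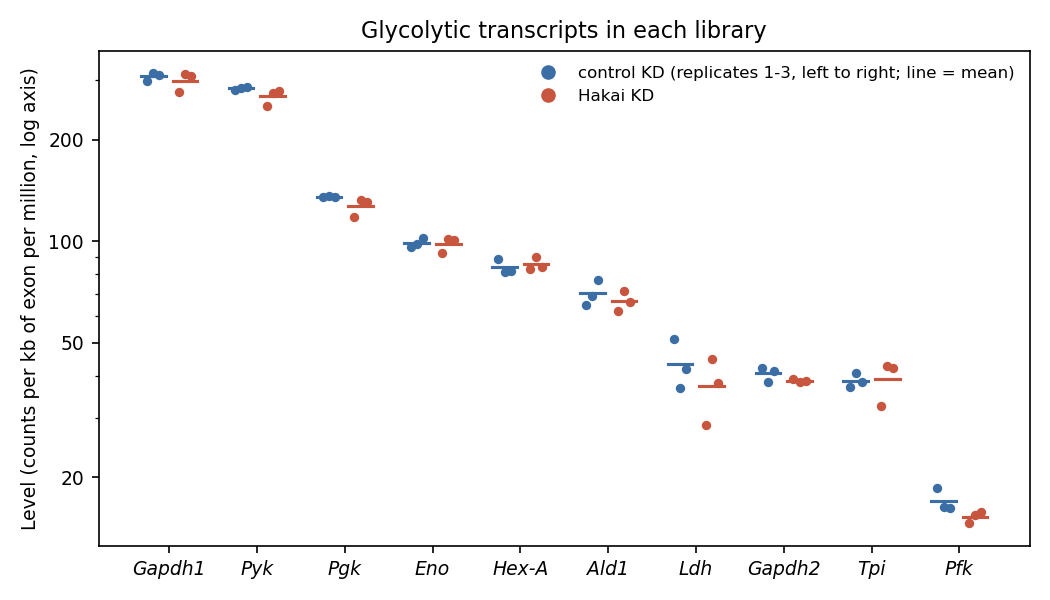
Level of each glycolytic transcript (RPKM, log axis) in the 3 control KD and 3 Hakai KD libraries, with points for libraries and lines for group means. The levels run from *Gapdh1* at 308 down to *Pfk* at 17.1 in control KD, and neighbours in the order share a range only among *Ldh*, *Gapdh2* and *Tpi* and, in Hakai KD, for *Gapdh1* and *Pyk*.

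The sugar-cleaving steps of the pathway were examined next, in normalized counts. *Hex-A* (FBgn0001186; X, 9585675 to 9589813, plus strand) encodes hexokinase, which phosphorylates glucose. Control KD replicates 1 to 3 had 6137, 5599.7 and 5636 normalized counts, and Hakai KD replicates 1 to 3 had 5725, 6189 and 5777, the order kept for all genes that follow. The groups overlapped, and the log2 fold change was 0.026 (SE 0.043, edgeR adjusted p = 0.73), and -0.0097 with scaling by library size alone in place of the TMM factors.

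*Pfk* (FBgn0003071; 2R, plus strand) encodes phosphofructokinase, the main control point of the pathway. In control KD it had 1363, 1192 and 1186 normalized counts, and in Hakai KD it had 1069.5, 1132 and 1154. All Hakai KD libraries lay below all control KD libraries, and the closest of them were 1154 and 1186. The log2 fold change was -0.16 (SE 0.056, interval from -0.28 to -0.035), with an edgeR p of 0.016 before and 0.081 after adjustment. Without control KD replicate 1, the library with 1363, it was -0.089. *Pfk* passed the threshold with library size alone (adjusted p = 0.042) and without a filter on low counts (adjusted p = 0.032), and its adjusted p lay between 0.032 and 0.24 over 16 alternatives in scaling, filter, test, replicate block and libraries left out.

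*Ald1* (FBgn0000064; 3R, 26254069 to 26261591, minus strand) encodes aldolase, which cuts fructose 1,6-bisphosphate. The control KD libraries had 4113, 4363 and 4887 normalized counts, and those of Hakai KD had 3956, 4525 and 4209.5, with overlap between the groups. The log2 fold change was -0.074 (SE 0.061, edgeR adjusted p = 0.45), at -0.0026 without control KD replicate 3, -0.028 without Hakai KD replicate 1 and -0.13 without control KD replicate 1 or Hakai KD replicate 2. *Tpi* (FBgn0086355; 3R, 30132981 to 30134599, minus strand) encodes triose phosphate isomerase, which interconverts the triose phosphates. Its normalized counts were 964, 1057 and 996 in control KD and 847, 1112 and 1099 in Hakai KD. Hakai KD replicate 1 held the lowest of the 6 values of *Tpi*, and replicates 2 and 3 held the highest. The log2 fold change was 0.019 (SE 0.085, edgeR adjusted p = 0.91), and -0.016 with library size alone.

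The energy-yielding steps start with glyceraldehyde 3-phosphate dehydrogenase, which 2 genes encode. *Gapdh1* (FBgn0001091; 2R, minus strand) had 7370.2, 7759 and 7653 normalized counts in control KD and 6808, 7712 and 7607 in Hakai KD. Its log2 fold change was -0.042 (SE 0.046, edgeR adjusted p = 0.58). *Gapdh2* (FBgn0001092; X, 15868145 to 15869661, plus strand) had 1015, 925.0 and 996 normalized counts in control KD and 939, 924.6 and 928 in Hakai KD, a log2 fold change of -0.072 (SE 0.043, edgeR adjusted p = 0.29), at -0.045 without control KD replicate 1 and -0.11 without control KD replicate 2. The groups overlapped for both genes.

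Both isoenzymes were then set against each other within each library. *Gapdh2* took 12.1%, 10.7% and 11.5% of the counts of *Gapdh1* plus *Gapdh2* in control KD and 12.1%, 10.7% and 10.9% in Hakai KD. Control KD thus averaged 11.4% ± 0.73 (SD, n = 3), and Hakai KD averaged 11.2% ± 0.77 (SD, n = 3). The difference of -0.19 percentage points was smaller than the spread of either group (two-sided exact permutation test, p = 1, where 3 libraries against 3 cannot go below 0.1). The difference changed sign without control KD replicate 1 (0.15) or Hakai KD replicate 2 (0.076). The 2 genes are close paralogs, and how reads that map to both were counted is not given in the sources used here, so that their split is uncertain.

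*Pgk* (FBgn0250906; 2L, 2746880 to 2753068, minus strand) encodes phosphoglycerate kinase, which makes the first ATP of the pathway. In control KD it had 4763, 4804 and 4764 normalized counts, the tightest group of all 10 genes with a coefficient of variation of 0.49%. This is less than the lowest counting error of a glycolytic gene in a library, 0.95%, so that it does not measure how well libraries repeat. The Hakai KD libraries had 4148, 4652 and 4601, all below the control KD libraries. The log2 fold change was -0.097 (SE 0.041, interval from -0.19 to -0.0058), with an edgeR p of 0.039 before and 0.14 after adjustment. Without Hakai KD replicate 1, the library with 4148, it was -0.046. With library size alone the adjusted p was 0.048, and over the 16 alternatives it lay between 0.048 and 0.38.

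*Eno* (FBgn0000579; 2L, 1724768 to 1729636, minus strand) encodes enolase, which forms phosphoenolpyruvate. The control KD libraries had 5984, 6107 and 6322 normalized counts, and those of Hakai KD had 5707, 6307 and 6255. The groups overlapped, and the log2 fold change of -0.011 (SE 0.041, edgeR adjusted p = 0.89) lay nearest to 0 among the 10 genes. *Pyk* (FBgn0267385; 3R, 22367536 to 22372746, plus strand) encodes pyruvate kinase, the last step before pyruvate. Its normalized counts were 10498, 10644 and 10684 in control KD and 9389.7, 10275 and 10429 in Hakai KD, without overlap between the groups. Its log2 fold change was -0.081 (SE 0.040, edgeR adjusted p = 0.21), and -0.035 without Hakai KD replicate 1.

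*Ldh* (FBgn0001258; 3L, 6259105 to 6262694, minus strand) encodes lactate dehydrogenase. In control KD it had 1659.95, 1190.05 and 1355 normalized counts, and in Hakai KD it had 926, 1455 and 1236. *Ldh* was the most variable of the 10 transcripts in both groups, where the coefficient of variation was 17.0% (control KD) and 22.0% (Hakai KD). The log2 fold change was -0.22 (SE 0.14, interval from -0.53 to 0.097, edgeR adjusted p = 0.34). Without Hakai KD replicate 1, the library with 926, it was -0.058. Without control KD replicate 1 it was -0.076, and without Hakai KD replicate 2 it was -0.38. The interval of the difference ran from 30.8% lower to 6.97% higher.

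**Figure D2:**
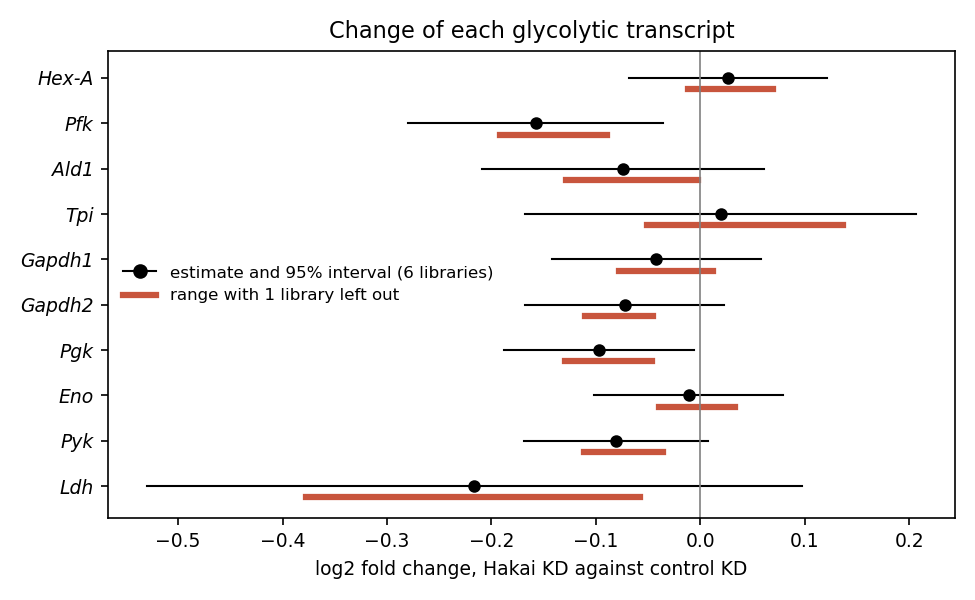
Log2 fold change of each glycolytic transcript in Hakai KD against control KD, with points for estimates, thin lines for approximate 95% intervals and thick lines for the range when 1 library is left out. The intervals of *Pfk* (-0.28 to -0.035) and *Pgk* (-0.19 to -0.0058) leave out 0, and that of *Ldh* (-0.53 to 0.097) is the widest.

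Across the 10 genes, 8 had a log2 fold change under 0 and 2 above it, and the median was -0.073, beside a median of 0.00058 over all genes tested. With library size alone all 10 were under 0, and the median of all genes moved by -0.035. With 1 library left out, between 6 (without Hakai KD replicate 1) and 10 (without Hakai KD replicate 2) were under 0. *Pfk*, *Pgk* and *Pyk* were the 3 genes without overlap between the groups, all with the lower values in Hakai KD, beside 34.9% without overlap and 17.9% without overlap and lower among all genes tested. Together the 10 transcripts took 0.269%, 0.263% and 0.268% of the counts in control KD replicates 1, 2 and 3. They took 0.234%, 0.261% and 0.257% in the Hakai KD replicates, all below the shares of control KD, and the difference of the means was -0.016 percentage points. With TMM scaling the groups overlapped, as the summed normalized counts of the 10 genes lay between 43640.1 and 44479 in control KD and between 39516 and 44283 in Hakai KD.

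One library held much of this difference. Hakai KD replicate 1 had the lowest value of the 3 Hakai KD libraries in 9 of the 10 genes, where it was the lowest in 35.2% of all genes tested. It was the lowest of all 6 libraries in 8 of the 10 genes, beside 18.1% of all genes tested. Without this library the median log2 fold change of the 10 genes was -0.032, and the difference in their share of the counts was -0.0080 percentage points. What sets this library apart was not tested.

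**Figure D3:**
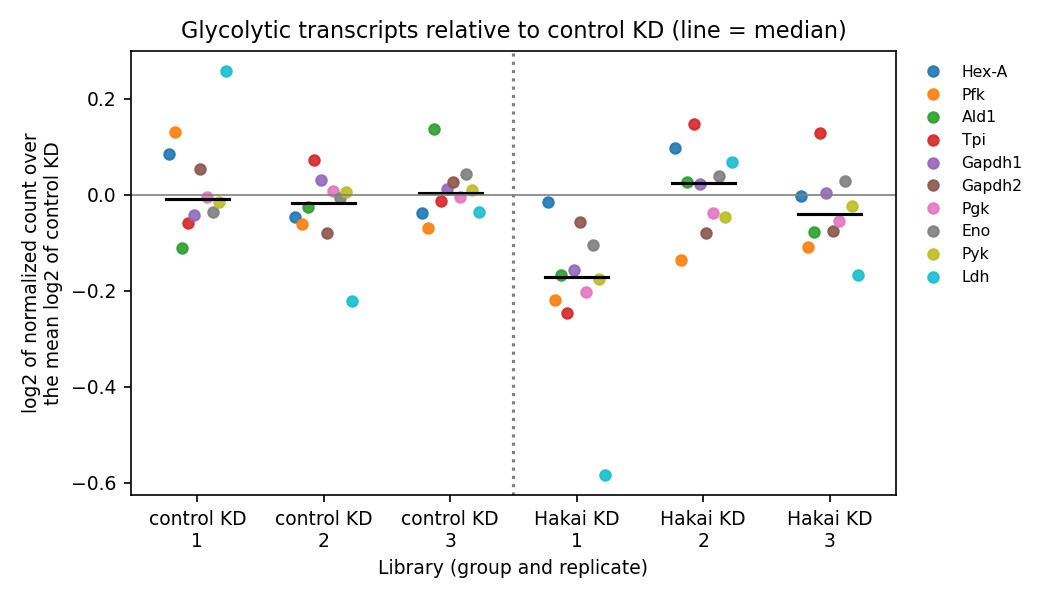
Normalized count of each glycolytic transcript in each library, as the log2 ratio to the mean log2 value of control KD, with a point for each gene and a line for the median of the 10 genes. In Hakai KD replicate 1 all 10 points lie under 0, and *Ldh* lies farthest below, at -0.58.

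Several of these enzymes have paralogs, and apart from the Gapdh pair nearly all counts of a family lay on 1 gene. *Hex-A* took all 35085 hexokinase counts over the 6 libraries. *Hex-C*, *Hex-t1* and *Hex-t2* had 0 counts, which allows a share of up to 0.00855% each (3 counts of the family total, counting error only). *Ald1* held 26042 of 26044 aldolase counts, and *Ald2* the other 2. *Pyk* held 99.7% of the pyruvate kinase counts. Of its 5 paralogs, *CG7069* had 184 counts, *CG2964* had 6, *CG7362* and *CG12229* had 1 each, and *CG11249* had 0, which allows up to 0.00483%. *Pgk* held 99.1% of its family, with 265 counts on *CG9961*. *Pglym78*, the phosphoglycerate mutase gene between *Pgk* and *Eno*, held all 10777 counts of its pair, and the 0 counts of *Pglym87* allow up to 0.0278%. The gene *CG9010*, listed with the Gapdh family, had 0 counts, which allows up to 0.00592%.

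Exons of other genes overlap those of 3 of the 10 genes, each on the other strand. The library kit keeps the strand, but the strand setting of the counting is not given in the sources used here. *Cwc25* overlaps 3.08% of the exon bases of *Pgk* and had a log2 fold change of 0.0021 (edgeR adjusted p = 0.98). *Rrp40* overlaps 9.74% of those of *Eno* and had a log2 fold change of 0.021 (edgeR adjusted p = 0.83). asRNA:CR44321, a non-coding gene, overlaps 8.87% of the exon bases of *Ald1*, and it had at most 7.7 normalized counts in any library.

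The remaining glycolytic and gluconeogenic genes were then examined. Of the 19 listed genes, 8 passed the filter on low counts, 0 were higher and 2 lower upon Hakai KD (beside 7.58% and 7.72% of all genes tested), with a median log2 fold change of 0.0029. The lowered genes both encode enzymes of gluconeogenesis. *PCB* encodes pyruvate carboxylase, which turns pyruvate into oxaloacetate. The control KD libraries had 3604, 3724 and 3582 normalized counts, and those of Hakai KD had 2323, 2251 and 2300.3, so that *PCB* fell by 0.67 on the log2 scale (SE 0.030, edgeR adjusted p = 1.8e-07). *fbp* encodes fructose 1,6-bisphosphatase, which reverses the step of *Pfk*. Its normalized counts were 239.6, 264 and 236 in control KD and 187, 184 and 179 in Hakai KD, a log2 fold change of -0.43 (edgeR adjusted p = 0.0037). The groups did not overlap in either gene, and both passed the threshold in all 16 alternatives.

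*Pgi*, which encodes the isomerase between hexokinase and phosphofructokinase, did not pass the threshold, with a log2 fold change of -0.028, and neither did *Pglym78* with -0.12. *Pfrx* encodes the enzyme that makes and removes fructose 2,6-bisphosphate, the activator of phosphofructokinase, and had a log2 fold change of 0.20 (edgeR adjusted p = 0.10). *Pepck2*, a phosphoenolpyruvate carboxykinase gene, had 0.082.

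Of 12 listed genes that handle pyruvate, lactate and acetate, 8 were tested, 2 were lower and 0 higher, beside 7.72% and 7.58% of all genes tested, with a median of 0.0018. *AcCoAS*, which encodes acetyl-CoA synthetase, had 1402, 1431 and 1454 normalized counts in control KD and 1025, 966 and 979.8 in Hakai KD, a log2 fold change of -0.53 (SE 0.038, edgeR adjusted p = 9.5e-06). *CG9399*, listed as a mitochondrial pyruvate carrier gene, had a log2 fold change of -0.19 (edgeR adjusted p = 0.042). It kept the threshold in 11 of the 16 alternatives and lost it with DESeq2 and without control KD replicate 2 or 3 or Hakai KD replicate 1 or 2, with adjusted p up to 0.16. *Pdha* and *Pdhb*, subunits of pyruvate dehydrogenase, had 0.032 and 0.13, and *Pdk*, the kinase that inhibits this enzyme, had 0.027, all without passing the threshold. The identifier that the annotation gives for *muc* was not used here.

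Genes of sugar uptake and storage held the largest share of calls among the related lists. Of 12 listed genes, 10 were tested, 6 were lower and 0 higher, beside 7.72% and 7.58% of all genes tested, and the median log2 fold change was -0.19. *Gyg*, the glycogenin gene, was not among the called genes, with -0.045 (edgeR adjusted p = 0.76). *Glys*, the glycogen synthase gene, had 3251, 2789 and 2642 normalized counts in control KD and 2146, 2437 and 2317 in Hakai KD, a log2 fold change of -0.33 (edgeR adjusted p = 0.0083). *AGBE*, the branching enzyme gene, had 1729, 1609.8 and 1584 in control KD and 1356, 1432 and 1369 in Hakai KD, a log2 fold change of -0.24 (edgeR adjusted p = 0.0036). In *Glys* and *AGBE* the highest of the 6 values was that of control KD replicate 1. The same held for *Pgm1*, *Zw*, *ScsbetaA*, *ScsbetaG* and *Vhl*, lowered genes described below. Without that library *Vhl* lost its call and the others kept theirs.

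*Pgm1* encodes phosphoglucomutase, which links glucose 6-phosphate to glycogen, and had a log2 fold change of -0.25 (edgeR adjusted p = 0.015), at 0.051 without Hakai KD replicate 1. *UGP* encodes the enzyme that makes UDP-glucose. Its log2 fold change was -0.13 (edgeR adjusted p = 0.040), and the call was lost with DESeq2, without the filter on low counts, with the replicate number as a block and without any single one of the 6 libraries, with adjusted p up to 0.24. The other lowered genes were *sut1*, a sugar transporter gene, with -0.29 (edgeR adjusted p = 0.0081) and *Treh*, the trehalase gene, with -0.25 (adjusted p = 0.0052). *GlyP*, which encodes the phosphorylase that breaks glycogen down, had -0.093 and did not pass the threshold. With 1 library left out, between 4 and 5 genes of this list were called.

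**Figure D4:**
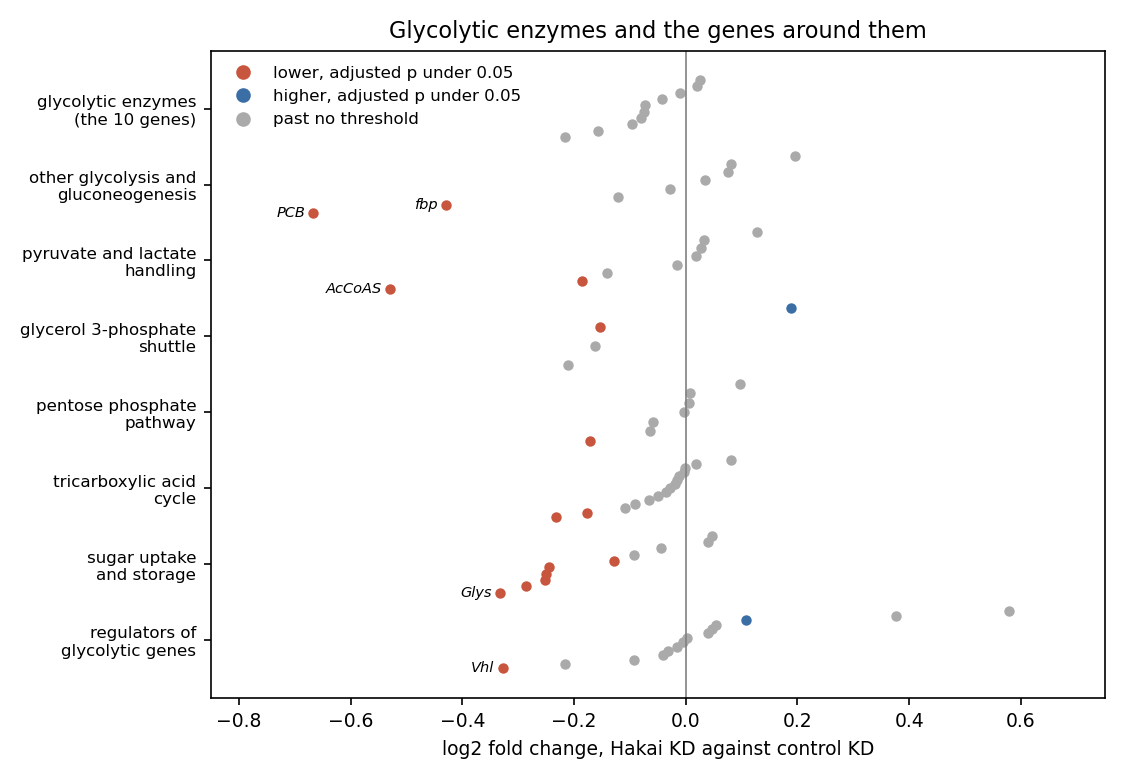
Log2 fold change in Hakai KD against control KD of the tested genes of each list, with a point for each gene, colour for genes with an adjusted p under 0.05 in edgeR's quasi-likelihood test, and names for called genes beyond ± 0.3. No glycolytic enzyme is coloured, whereas *PCB* (-0.67), *AcCoAS* (-0.53), *fbp* (-0.43) and *Glys* (-0.33) are.

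**Figure D5:**
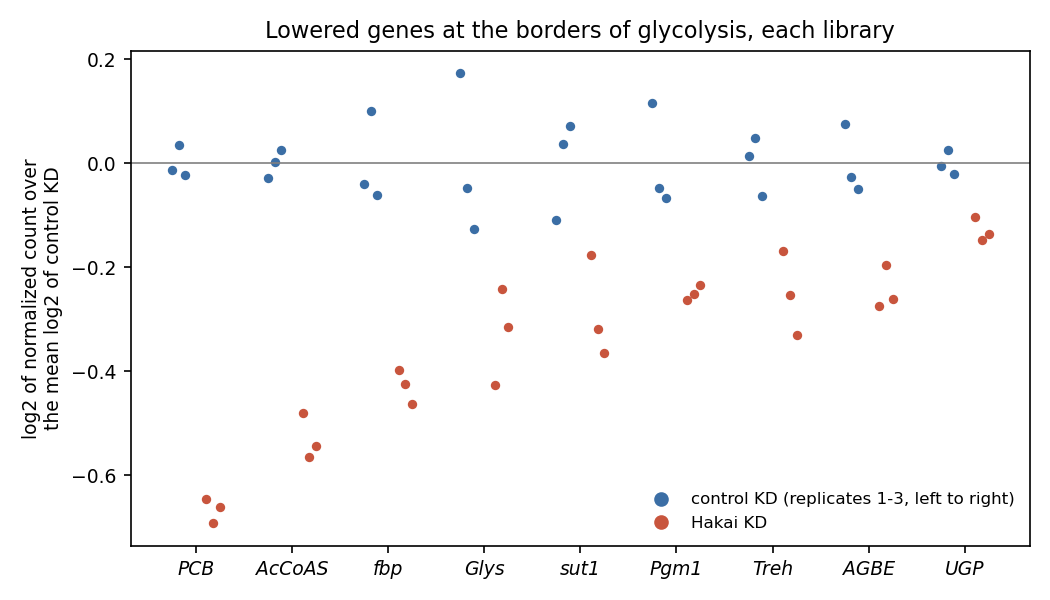
Normalized counts of 9 genes called lower that border on glycolysis, as the log2 ratio to the mean log2 value of control KD, with a point for each library. The 9 genes were chosen from those called lower in these same libraries, and other called genes of the lists are not shown. In each of the 9 genes all Hakai KD libraries lie below all control KD libraries, beside 17.9% of all genes tested. This separation partly follows from the choice.

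The pathways that branch off were examined next. In the pentose phosphate pathway 1 of 7 tested genes was lower and 0 higher, beside 7.72% lower and 7.58% higher among all genes tested, with a median of -0.0034. The lowered gene was *Zw*, which encodes glucose 6-phosphate dehydrogenase, with a log2 fold change of -0.17 (edgeR adjusted p = 0.013), at 0.069 with DESeq2 and 0.052 without Hakai KD replicate 1. In the glycerol 3-phosphate shuttle, which carries electrons of cytosolic NADH into mitochondria, 1 of 4 tested genes was lower and 1 higher, beside 15.3% called in either direction among all genes tested, with a median of -0.16. *Gpo1* had -0.15 (edgeR adjusted p = 0.024) and *Gpdh3* had 0.19 (adjusted p = 0.036). With 1 library left out, between 0 and 1 genes of this shuttle were called, and with DESeq2 0 were.

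In the tricarboxylic acid cycle, 2 of 15 tested genes were lower and 0 higher, with a median of -0.029. Among all genes tested, 7.72% were lower and 7.58% higher, or 15.3% in either direction. *ScsbetaA* and *ScsbetaG*, which encode the beta subunits of succinyl-CoA synthetase, had log2 fold changes of -0.18 (edgeR adjusted p = 0.0037) and -0.23 (adjusted p = 0.0031). Both passed the threshold in all 16 alternatives. *kdn*, the citrate synthase gene, had -0.029, and *Mdh2*, the mitochondrial malate dehydrogenase gene, had -0.0019. The identifier of *Fum1* in the annotation was not used here.

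Known regulators of glycolytic genes were examined last. Of 14 genes tested, 1 was higher and 1 lower, a share near the 15.3% called among all genes tested, with a median of -0.0014. *ERR* had 359.9, 369.8 and 360.2 normalized counts in control KD and 323, 378 and 365 in Hakai KD, a log2 fold change of -0.032 (edgeR adjusted p = 0.80). *sima*, the hypoxia factor gene, had -0.040 and its partner gene *tgo* -0.0043, neither past the threshold. *Vhl*, whose product marks the hypoxia factor for degradation, was lower, with a log2 fold change of -0.33 (edgeR adjusted p = 0.024). Its adjusted p rose to between 0.054 and 0.077 without control KD replicate 1 or 2 or Hakai KD replicate 1 or 3 and with DESeq2. *SNF4Agamma*, the gamma subunit gene of the energy sensor AMPK, was higher, with 0.11 (adjusted p = 0.048), and passed the threshold in 6 of the 16 alternatives. The count of called regulators lay between 0 and 2 when 1 library was left out.

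Of 10 listed markers of hemocyte-like cells, the type S2R+ resembles, 9 passed the filter, 3 were higher (*Hml*, *Pxn* and *Ppn*), beside 7.58% of all genes tested, and 0 lower. The log2 fold change was above 0 in 6 of the 9. It was under 0 in *srp* (-0.044), *crq* (-0.039) and *eater* (-0.078), none of them called. The summed normalized counts of the 10 markers lay between 16185 and 16519 in control KD and between 16657 and 17074 in Hakai KD. The part of such markers in the results was not tested. Of 8 markers of neurons, muscle, gonad and fat body in the files, *elav* had 312 to 461 normalized counts and the others at most 23.1.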

How the data were processed

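Reads of poly(A) RNA (85 bp, single) were mapped by the authors with STAR (2.5.1b in the processing notes) to Ensembl release 90 (BDGP6) and counted per gene with featureCounts (1.5.1). The deposited values are raw counts per gene, 1 file per library, without normalization. Gene symbols, positions and exon lengths came from Ensembl release 115 (BDGP6.54, the same assembly), in which 17253 of 17559 identifiers were found.

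The comparison was run with edgeR 4.0.16 (R 4.3.3), with filterByExpr (minimum count 10, total 15), TMM factors and the quasi-likelihood test without covariates, after a test on simulated data. That test recovered 42% of the genes changed by 0.25 on the log2 scale and 88% of those changed by 0.5, with 6 false among 168 calls. Changes of the size seen in the 10 glycolytic genes could thus be missed. The simulation gave 168 calls where the data gave 1195, so that its rates need not hold for these genes. P-values were adjusted over all 7811 genes tested. Standard errors are the absolute log2 fold change over the square root of F, and the 95% intervals follow from them, so that both are approximate. Alternatives used DESeq2 1.42.0 and limma 3.58.1. The 10 genes and the lists of related genes were chosen with earlier results of these data known, and no list was tested as a set. Named were the 10 genes, *Hakai*, genes overlapping the 10, and up to 4 called genes per direction in each list by size of change. Where *AGBE*, *UGP*, genes that missed the threshold and *Myc* and *Mnt* are named beyond this, they were chosen after their values were seen.

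The study states 3 biological replicates per group. Pairs of the same group differed by a chi-square of 2.25 to 14.7 per degree of freedom, so that none was counted as 1 sample. Control KD replicate 1 stood farthest from its group, with 11.4 and 14.7.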

Additional observations from a re-analysis of the deposited data

How the results depend on the processing

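The count of 0 glycolytic genes called held in 14 of 16 alternatives. With library size alone 2 were called lower (*Pfk* and *Pgk*), where the median of all genes moved by -0.035. Without the filter on low counts, in a fit over 12758 genes, 1 was called lower (*Pfk*, with an SE of 0.051 in place of 0.056). Over all genes 1195 were called, 592 higher and 603 lower. Library size alone gave 374 higher and 922 lower, a share of 28.9% higher against 49.5%. DESeq2 called 810, with 395 lower. With 1 library left out, calls lay between 708 (without control KD replicate 2; 740 without Hakai KD replicate 2) and 1014, higher calls between 328 and 521 and lower calls between 380 and 509, in fits with fewer libraries. A replicate block in the model gave 1152 calls and 0 glycolytic genes. Over all genes tested, same-numbered libraries did not deviate together (correlations of -0.076, -0.033 and -0.075). With the block the SE of *Tpi* was 0.059 in place of 0.085, while those of *Hex-A*, *Pfk* and *Ldh* were higher. Whether the numbers pair the libraries was thus not settled. The log2 fold changes nearest 0 took either sign. *Hex-A* had -0.0097 and *Tpi* -0.016 with library size alone. With 1 library left out, *Hex-A* ranged from -0.012 to 0.070, *Tpi* from -0.051 to 0.14, *Gapdh1* from -0.077 to 0.012 and *Eno* from -0.039 to 0.034. The others kept their sign, with ranges from -0.19 to -0.089 for *Pfk*, -0.13 to -0.0026 for *Ald1*, -0.11 to -0.045 for *Gapdh2*, -0.13 to -0.046 for *Pgk*, -0.11 to -0.035 for *Pyk* and -0.38 to -0.058 for *Ldh*. The *Gapdh2* share differed by -0.63 to 0.15 percentage points and the share of counts in the 10 genes by -0.021 to -0.0080. The cause of these moves was not tested.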

Other observations

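Among the regulators, *Myc* and *Mnt* differed between the Hakai KD libraries, and they were singled out after their values were seen. *Myc*, which encodes a growth factor-responsive transcription factor, had 2235, 2687 and 2585 normalized counts in the control KD libraries (replicates 1 to 3) and 3712, 3524 and 2502 in those of Hakai KD. *Mnt*, which encodes a repressor that shares the partner Max with Myc, had 312, 539 and 508 in control KD and 743, 990.3 and 279 in Hakai KD. Hakai KD replicates 1 and 2 were above all control KD libraries in both genes, whereas replicate 3 lay within the control range of *Myc* and below that of *Mnt*. The log2 fold changes were 0.38 (edgeR adjusted p = 0.052, between 7.7e-05 and 0.22 over the alternatives) and 0.58 (edgeR adjusted p = 0.28, between 0.0018 and 0.78). Without Hakai KD replicate 3 they were 0.53 (edgeR adjusted p = 7.7e-05) and 0.94 (edgeR adjusted p = 0.0018). Without Hakai KD replicate 2 they were 0.31 (edgeR adjusted p = 0.18) and 0.18 (edgeR adjusted p = 0.78), and without control KD replicate 1 *Mnt* had 0.37 (edgeR adjusted p = 0.54). Of the 10 glycolytic genes, 8 had the lowest of their 6 values in Hakai KD replicate 1, rather than in replicate 3. What separates these libraries was not tested.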
